A study of Apis mellifera with 18 samples.

Results

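Protein kinase C was followed through a single gene, Pkc (BeeBase gene model GB43222), in the brains of honeybee queens. It is 1 of the 15314 gene models in the count files and was picked by its identifier, as the kinase of the phototransduction pathway. Earlier results of these data were known when it was chosen. The queens (Apis mellifera ligustica) were sisters raised from larvae of 1 colony. They were kept virgin in hives whose queen excluders prevented mating flights. When 4 days old they were caged and exposed to CO2 for 1 min, and they were sedated with CO2 again for insemination. Every group, controls included, had therefore received CO2. RNA-seq Experiment 1 compared a mock insemination, in which no fluid was injected, with 6 µl of semen and with 6 µl of seminal fluid freed of sperm. RNA-seq Experiment 2 repeated both treatments and replaced the mock by 6 µl of Hayes saline, a buffered salt solution used to handle semen. Brains with their optic lobes were taken 24 h later, and each of the 6 groups had 3 libraries (A, B and C) made from 3 pooled brains. As each kind of control occurred in 1 experiment only, control and experiment cannot be told apart.

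Protein kinase C enzymes are switched on at the membrane by diacylglycerol and, in the conventional forms, by calcium. In the photoreceptors of Drosophila, light-activated rhodopsin works through a G protein on the phospholipase C encoded by norpA, which cleaves a membrane phosphoinositide into diacylglycerol and inositol trisphosphate, and the TRP channels then open. The eye form of protein kinase C in the fly is bound with norpA and TRP by the scaffold inaD and helps to end the light response. Related kinases act throughout nervous systems, among others in learning and in the control of transmitter release. RefSeq lists 3 transcripts and 3 proteins for Pkc of the honeybee, whereas the files hold 1 model, so transcript forms could not be separated. No other protein kinase C gene could be paired with a BeeBase identifier, and none was analysed here.

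Pkc was abundantly expressed in every library. Its raw counts ran from 14989 to 37271 per library, among 26636844 to 51745752 counts assigned to genes, and it ranked 162nd to 308th from the top among all gene models. Counting error was therefore small, with a coefficient of variation of 0.817% at the lowest count, and intervals from counting cover that error alone. Between 0.840% and 9.96% of a library went to its most abundant gene, GB49544, the vitellogenin gene, which was listed as a fat body marker. Its median share was 5.88% in Experiment 1 and 1.40% in Experiment 2. It took 8.90% in library C of the seminal fluid group of Experiment 2, against 0.949% and 0.840% in libraries A and B, and 4.74% in Hayes saline library A.

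Levels are given as CPM (counts scaled to a common library total) after TMM scaling (trimmed mean of M values) within each experiment, unless another scale is named. Mock libraries A, B and C held 684, 666 and 656 normalised CPM of Pkc, a mean of 669 ± 13.9 (SD, n = 3). The semen libraries of Experiment 1 held 790.3, 629.8 and 634 CPM (685 ± 91.5, SD, n = 3), and those with seminal fluid 735, 621 and 786 CPM (714 ± 84.7, SD, n = 3). In both inseminated groups of Experiment 1 some libraries lay above all 3 mock libraries and others below all of them, so the groups overlapped. Hayes saline libraries held 511, 549.8 and 579 CPM (547 ± 34.1, SD, n = 3). Semen libraries of Experiment 2 held 556, 565 and 537 CPM (553 ± 14.1, SD, n = 3), and seminal fluid libraries 539, 519 and 554 CPM (537 ± 17.5, SD, n = 3). All libraries with semen or seminal fluid in Experiment 2 lay within the range of the 3 saline libraries.

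Ordered by mean level, the groups ran from seminal fluid, semen and mock insemination in Experiment 1 to semen, Hayes saline and seminal fluid in Experiment 2. Neighbours overlapped except for the step from Experiment 1 to Experiment 2, and that step joins values scaled separately.

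**Figure D1:**
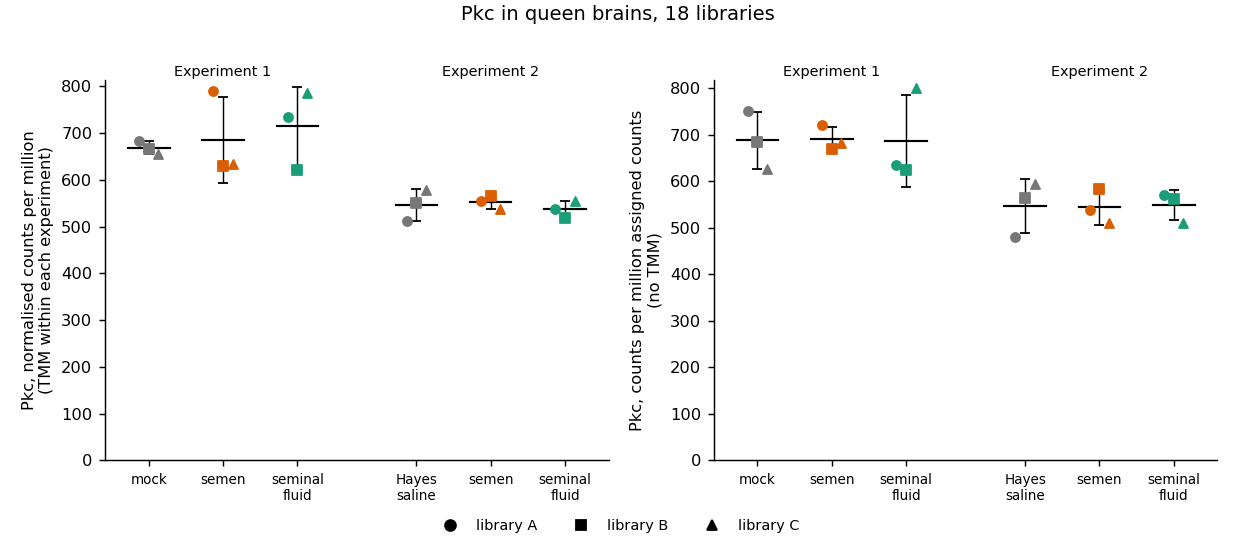
Pkc in each of the 18 libraries, as CPM scaled by TMM within each experiment (left) and as CPM without TMM (right). Points are libraries, lines are group means and bars are SD (n = 3). Groups of an experiment overlap on both scales, and all libraries of Experiment 1 lie above those of Experiment 2.

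The first question was whether Pkc responded to insemination, and no response was detected in Experiment 1. Against mock insemination, Pkc differed by 0.03 on the log2 scale after semen (SE 0.14, edgeR quasi-likelihood test, adjusted p = 0.993), with a 95% confidence interval from -16.8% to 26.0%. After seminal fluid the log2 (fold change) was 0.09 (SE 0.14, adjusted p = 0.804, edgeR), with an interval from -13.2% to 31.4%. In these bulk brain samples, a change in the number of Pkc-expressing cells and a change in the RNA per cell could not be told apart. Few genes were called at all: 0.128% of the 11761 genes tested passed an adjusted p of 0.1 after semen, and 0.162% after seminal fluid. Semen holds sperm and seminal fluid does not, but sperm was not the only difference between them. Semen was used fresh, whereas seminal fluid was pooled from many drones, centrifuged and stored frozen. Seminal fluid against semen gave 0.06 for Pkc (SE 0.14, adjusted p = 0.987, edgeR). No gene was called in that comparison by edgeR (0%), and DESeq2 called 1. An unadjusted p under 0.05 was found for 680 of the 11761 genes, where a share of 0.05 would be expected without any change.

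Experiment 2 bounded the change more narrowly. Semen against Hayes saline gave a log2 (fold change) of 0.02 for Pkc (SE 0.07, adjusted p = 0.968, edgeR), with an interval from -9.77% to 13.2%. Seminal fluid against Hayes saline gave -0.03 (SE 0.07, adjusted p = 0.901, edgeR), with an interval from -12.3% to 10.1%. The shares of all 11899 tested genes that were called were 0.328% and 0.429%, and these shares moved when 1 library was left out, ranging from 0.076% without Hayes saline B to 0.816% without Hayes saline A for semen, and from 0.135% without Hayes saline B to 9.05% without Hayes saline C for seminal fluid. Between seminal fluid and semen Pkc differed by -0.04 (SE 0.07, adjusted p = 0.795, edgeR). The share of genes called in this comparison depended on the fit. It was 0.0084% here, 8.47% with DESeq2 and 10.2% with edgeR on only the 6 libraries compared, and Pkc was called in none of these fits. Changes beyond those limits in either direction lie outside the intervals, while smaller ones could not be detected with 3 libraries per group.

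The responses of Pkc did not differ detectably between the experiments. The change after semen was smaller in Experiment 2 than in Experiment 1 by 0.04 on the log2 scale, an interaction contrast of -0.04 (SE 0.16, adjusted p = 1.00, edgeR). The contrast was -0.11 for seminal fluid (SE 0.16, adjusted p = 0.818, edgeR) and -0.07 for seminal fluid against semen (SE 0.16, adjusted p = 0.867, edgeR). Genes called in these 3 contrasts made up 0%, 0.0083% and 0% of 12052 tested, and 8.99% in the contrast of seminal fluid with semen without semen A of Experiment 1. Unadjusted p values under 0.05 were found for 383, 1393 and 1751 of the 12052 genes, where a share of 0.05 would be expected without any change. DESeq2 called 0, 99 and 318.

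With both experiments combined, each compared with its own control, any insemination changed Pkc by 0.03 (SE 0.07, 95% confidence interval -7.68% to 12.7%, adjusted p = 0.884, edgeR), where 2.6% of the 12052 genes tested were called. An exact two-sided permutation test, in which control labels were exchanged inside each experiment in all 7056 ways, gave a mean log2 difference of 0.02 and p = 0.665. The difference was 0.06 in Experiment 1 and -0.01 in Experiment 2. Of the 12052 genes, 16.5% moved less than Pkc in this contrast by absolute log2 (fold change).

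**Figure D2:**
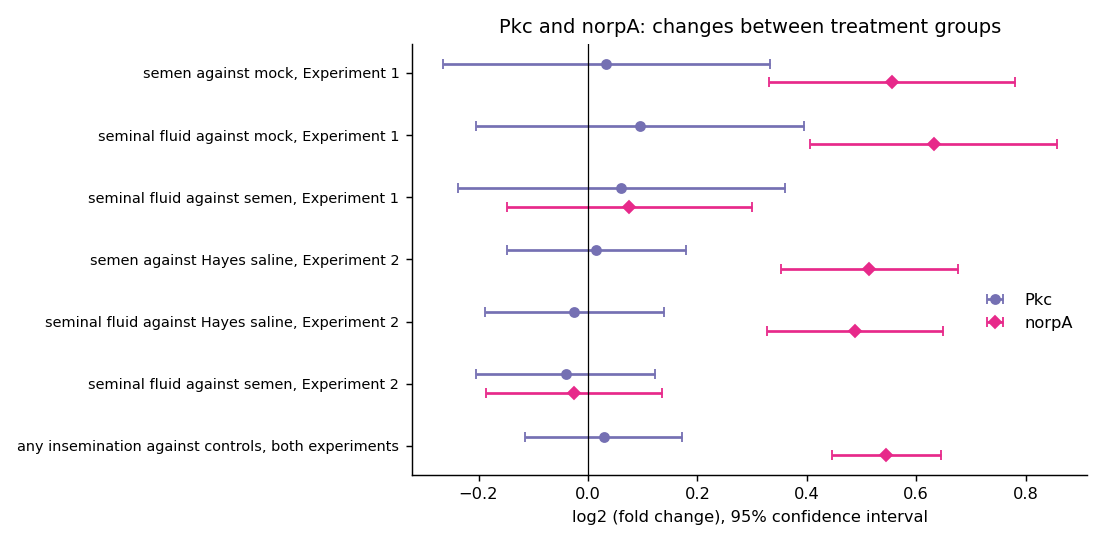
Log2 (fold change) of Pkc (circles) and of norpA (diamonds), with 95% confidence intervals, for the 6 comparisons within experiments and for any insemination against the controls of both. All intervals of Pkc include 0, and those of norpA against controls lie above 0.

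Between the experiments, Pkc did differ. Inseminated queens of Experiment 2 had lower Pkc than those of Experiment 1, by -0.91 on the log2 scale (SE 0.08, adjusted p = 2.18e-07, edgeR, all 18 libraries scaled together), and Hayes saline libraries had less than mock libraries, by -0.83 (SE 0.11, adjusted p = 6.73e-05, edgeR). Differences of this kind were common, as 69.8% and 50.5% of genes were called in these contrasts. Their size for Pkc depended on the scaling. The TMM factors were 0.703 to 0.909 in Experiment 1 and 1.11 to 1.30 in Experiment 2, and without TMM the same contrasts were -0.34 (adjusted p = 0.00141, edgeR) and -0.33 (adjusted p = 0.0211, edgeR). Without TMM the median gene itself moved by 0.58 and 0.54, so relative to the median gene Pkc was lower by -0.92 and -0.87, against -0.93 and -0.87 with TMM. As CPM without TMM, Experiment 1 libraries held 625 to 802 and Experiment 2 libraries 481 to 595, with no overlap.

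Within groups Pkc varied less than the median gene, more so in Experiment 2. The SD of Pkc within groups was 0.13 log2 units over all libraries. Of the 12052 genes, 24.7% had a smaller SD, and the median gene had 0.19. Genes of all levels entered this comparison, and Pkc was not set against genes of its own level. Among 22 genes mapped to the phototransduction pathway Pkc had the 7th lowest SD, and norpA had the lowest at 0.07. In Experiment 1 the SD of Pkc was 0.17, with 36.1% of genes smaller, and in Experiment 2 it was 0.07, with 8.11% of genes smaller. Which group of Experiment 1 looked most even depended on the scale. With TMM the coefficient of variation was 2.09% among mock libraries and 13.4% among semen libraries, and as unscaled shares it was 8.97% and 3.79%. The library with the most Pkc also changed, from semen library A with TMM to seminal fluid library C without it.

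**Figure D3:**
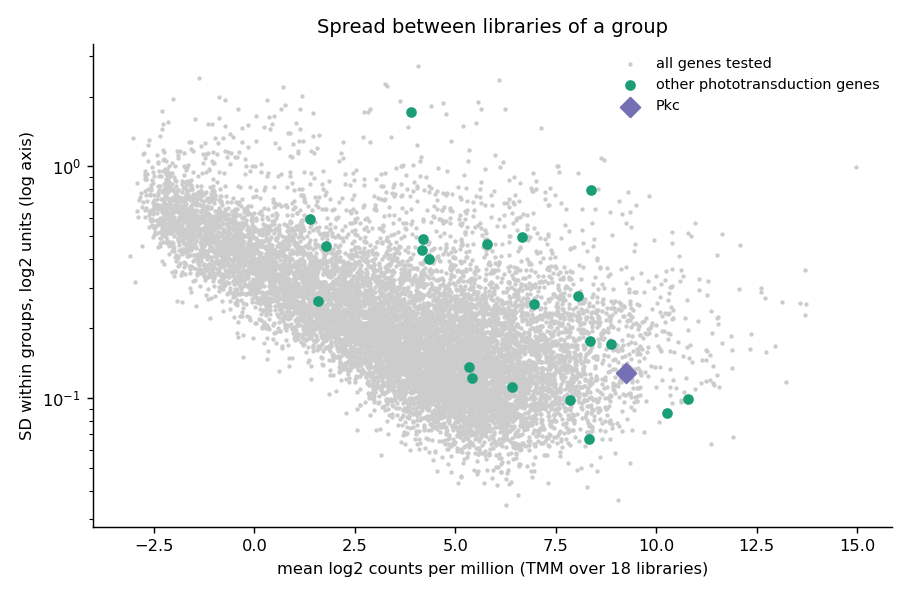
SD within groups (log2 units, log axis) against mean log2 CPM for the 12052 genes tested over 18 libraries, each point a gene. Pkc (diamond) has an SD of 0.13, below the median gene at 0.19, and the other 21 phototransduction genes (green) are spread from 0.07 to 1.72.

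The list of honeybee genes mapped to the Drosophila phototransduction pathway held 22 genes, Pkc among them, and all 22 passed the filter on low counts. The paper took up this pathway because of its own results on these libraries, so the list was not chosen independently of them. Actin (a) alone was called after semen in Experiment 1 (0.128% of all genes), and norpA and Actin (a) were called in each of the other 3 comparisons with controls (0.162% to 0.429% of all genes) and in the combined contrast (2.6%). After semen in Experiment 1 norpA missed the threshold with a log2 (fold change) of 0.56 (adjusted p = 0.114, edgeR), and it was called there by DESeq2 (adjusted p = 5.11e-06) and by edgeR in the fit of all 18 libraries (adjusted p = 0.00295), with a change of 0.56 in both. No listed gene was called down in these comparisons or in either direction between seminal fluid and semen, where edgeR gave 0 calls in both experiments and unadjusted p values under 0.05 for 3 and 6 listed genes, beside 680 of 11761 and 2209 of 11899 genes in all. The median log2 (fold change) of the list in the combined contrast was 0.12, beside -0.02 over all genes tested, and it was 0.08, 0.12, -0.05 and 0.21 in the 4 comparisons with controls. Pkc ranked 15th to 22nd of the 22 by absolute change within experiments. By counts, which are not per length, Pkc was the third of the list, after Arp1, an actin-related gene, and GB49410, which has no name here.

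The phospholipase C genes, which make the diacylglycerol that activates the kinase, were measured beside it. The phospholipase gene norpA averaged 217 ± 7.18 CPM in mock libraries, 319 ± 14.3 after semen and 336 ± 20.1 after seminal fluid (SD, n = 3 each). In Experiment 2 it averaged 288 ± 19.5 with Hayes saline, 411 ± 14.1 after semen and 404 ± 2.35 after seminal fluid (SD, n = 3 each). Combined over the experiments norpA rose by 0.55 (SE 0.05, adjusted p = 9.70e-06, edgeR), and its call held when any 1 of the 18 libraries was left out. The second phospholipase gene, PLC, gave 0.23 (SE 0.08, adjusted p = 0.224, edgeR). The diacylglycerol lipase DAGLB, which removes diacylglycerol, was scarce and gave -0.67 (SE 0.21, adjusted p = 0.134, edgeR). DESeq2 called it with an adjusted p of 0.0464, and so did edgeR without Hayes saline library B (-0.81, adjusted p = 0.0689).

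Apart from Actin (a), genes acting with or after the kinase gave no call. The scaffold inaD, which holds the kinase in the fly, gave 0.12 (SE 0.12, adjusted p = 0.654, edgeR), and the channel genes TRP and TRPgamma gave -0.02 (SE 0.19, adjusted p = 0.974, edgeR) and 0.17 (SE 0.07, adjusted p = 0.276, edgeR). The class III myosin ninaC, a kinase and myosin of fly photoreceptors, gave 0.16 (SE 0.22, adjusted p = 0.773, edgeR). Camkii, a calcium-dependent kinase of synapses, gave 0.03 (SE 0.13, adjusted p = 0.948, edgeR). Actin (a) rose by 1.90 (SE 0.20, adjusted p = 3.99e-05, edgeR) from a low level of 14.0 ± 2.38 CPM in mock and 5.30 ± 1.44 CPM in saline libraries (SD, n = 3 each). Actin genes resemble each other, and reads that did not align uniquely were set apart, so its counts may miss reads shared with other copies.

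In single comparisons, the adjusted p of norpA and Actin (a) crossed the threshold in some fits, while their log2 changes moved little. For norpA after seminal fluid in Experiment 1 (log2 change 0.63, adjusted p = 0.0575, edgeR), adjusted p rose to between 0.142 and 0.322 without mock library A, B or C or without seminal fluid library B or C. In Experiment 2, the norpA call after semen (0.51) was lost once Hayes saline library B or semen library A or C was left out (adjusted p 0.122 to 0.145), and that after seminal fluid (0.49) without Hayes saline library B or seminal fluid library A or B (adjusted p 0.109 to 0.138). Actin (a) lost its call after semen in Experiment 1 (1.72) when any of the 6 libraries was left out (adjusted p 0.194 to 0.362), and after seminal fluid (1.93) without mock library A, B or C (adjusted p 0.150 to 0.164). In Experiment 2 its calls after semen (2.17) and seminal fluid (1.76) were lost without Hayes saline library B (adjusted p 0.102 and 0.131). With 1 library left out, the 4 changes against controls ranged from 0.54 to 0.59, 0.59 to 0.68, 0.46 to 0.54 and 0.43 to 0.52 for norpA, and from 1.63 to 1.86, 1.49 to 2.18, 1.99 to 2.37 and 1.54 to 1.96 for Actin (a). With all libraries of a comparison kept, the fit of only the 6 libraries compared lost both calls after seminal fluid in Experiment 1 (adjusted p = 0.171 each, edgeR) and in Experiment 2 (adjusted p = 0.132 for norpA and 0.120 for Actin (a), edgeR), and limma-voom lost that of Actin (a) after semen in Experiment 1 (adjusted p = 0.100).

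Because a ratio of 2 genes within a library needs no scaling, partners were also expressed as counts per 100 Pkc counts. For norpA the ratio was 32.9, 31.7 and 32.7 in mock libraries A, B and C, 41.5, 51.8 and 47.7 after semen, and 43.1, 53.8 and 45.4 after seminal fluid. In Experiment 2 it was 51.9, 54.5 and 51.6 with Hayes saline, 74.6, 70.1 and 78.8 after semen, and 75.1, 78.2 and 72.4 after seminal fluid. All 6 inseminated libraries of each experiment lay above the 3 controls of that experiment. The share of all genes that separate in this way was not counted, and 2.6% of 12052 genes were called in the combined contrast. The log2 ratio was 0.52 higher after insemination (exact permutation within experiments, p = 0.000142, the smallest possible), with 0.54 in Experiment 1 and 0.51 in Experiment 2. As Pkc itself did not change detectably, this ratio largely repeats the rise of norpA.

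Of the 8 ratios tested, norpA was the only one with an exact p under 0.00625, which is the 0.05 level divided by 8. The paper had already reported norpA as raised in these same libraries, and the partners came from its pathway list. The p of norpA is therefore no independent support for its rise. PLC to Pkc was 0.19 higher on the log2 scale (exact permutation, unadjusted p = 0.0315), and its p reached 0.0893 without mock library C and was also above 0.05 without mock A, semen B or C or seminal fluid A of Experiment 1, or without Hayes saline C. DAGLB to Pkc was -0.69 (exact permutation, unadjusted p = 0.0388), with -0.39 in Experiment 1 and -0.99 in Experiment 2. Semen against mock insemination gave 0.04 for DAGLB (SE 0.22, adjusted p = 0.993, edgeR), and the exact p of the ratio rose above 0.05 without 1 of 9 libraries, namely mock B and seminal fluid A or C of Experiment 1, or Hayes saline A or C, semen C or seminal fluid A, B or C of Experiment 2, up to 0.111 without Hayes saline C. The remaining ratios, those of inaD, TRP, TRPgamma, ninaC and Camkii, had exact permutation p values from 0.124 to 0.800.

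**Figure D4:**
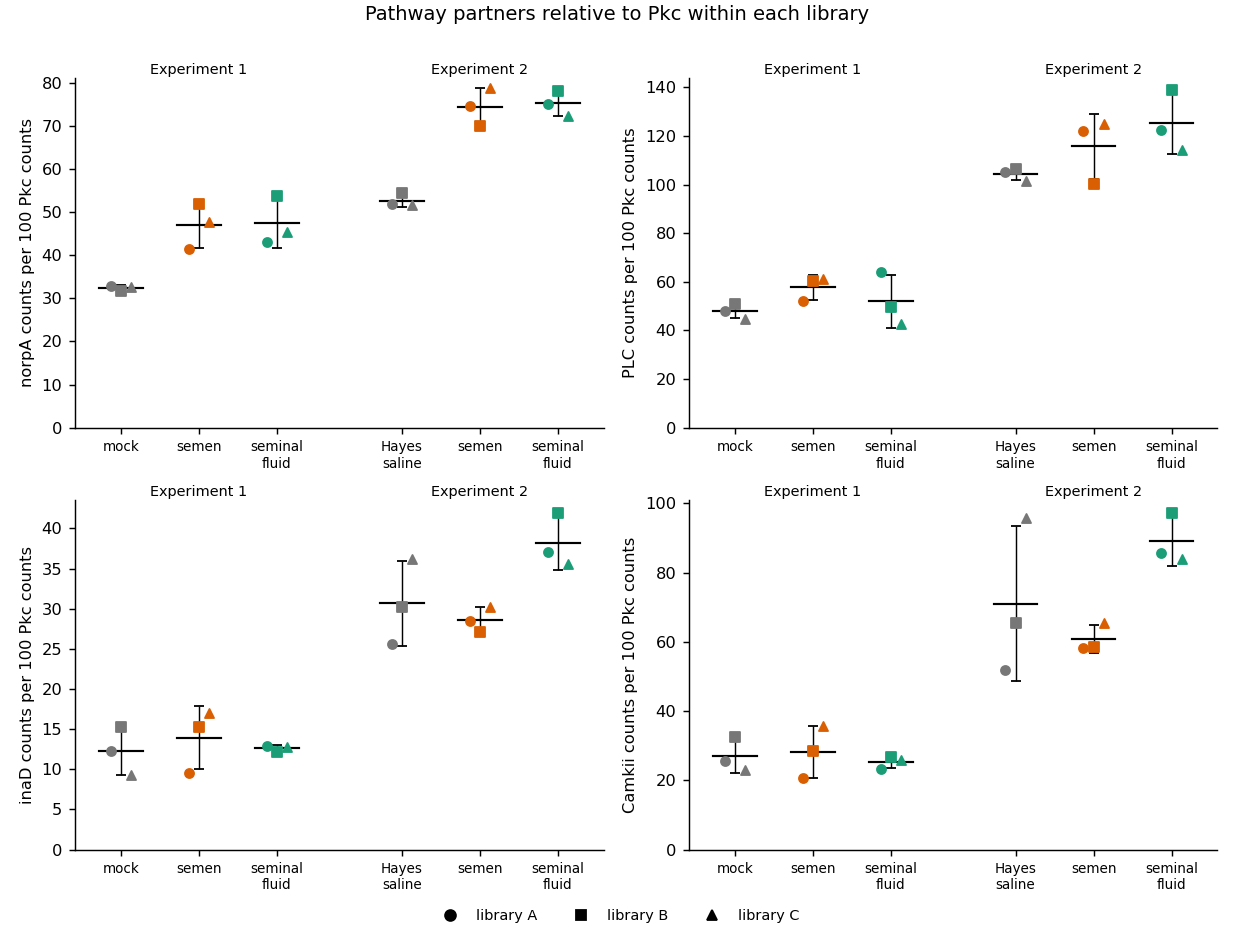
Counts of norpA, PLC, inaD and Camkii per 100 Pkc counts in each library, with group means (lines) and SD (bars, n = 3). The norpA ratio is 31.7 to 32.9 in mock and 41.5 to 53.8 in inseminated libraries of Experiment 1, and 51.6 to 54.5 with saline and 70.1 to 78.8 in inseminated libraries of Experiment 2.

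Relative to Pkc, all 4 plotted partners had higher means in each group of Experiment 2 than in the matching group of Experiment 1. Pkc, the shared denominator, was itself lower in Experiment 2, by -0.91 in inseminated queens and -0.83 between controls (log2, all 18 libraries scaled together). These ratios alone therefore do not show that the partners rose. In Experiment 2 inaD and Camkii also differed between the fluids in their ranges. Camkii averaged 60.7 ± 4.08 counts per 100 Pkc counts after semen and 89.0 ± 7.21 after seminal fluid in Experiment 2 (SD, n = 3 each), and these libraries did not overlap. For inaD the ratios were 28.6 ± 1.58 and 38.2 ± 3.34 (SD, n = 3 each), again without overlap. The ratios of norpA, PLC, DAGLB, TRP, TRPgamma and ninaC overlapped between these groups. How many of all genes lack overlap there was not counted, and 2209 of 11899 had an unadjusted p under 0.05 (edgeR). Neither Camkii nor inaD was called between these groups in the fit of 9 libraries. Their log2 changes were 0.51 for Camkii (SE 0.22, adjusted p = 0.254, edgeR) and 0.38 for inaD (SE 0.14, adjusted p = 0.238, edgeR). Both were called when only the 6 libraries compared were fitted (adjusted p = 0.0236 and 0.0362, edgeR), a fit in which 10.2% of genes were called. Saline libraries, at 51.9 to 95.8 for Camkii, covered all semen libraries and also seminal fluid libraries A and C (85.8 and 83.9), and for inaD, at 25.7 to 36.1, they overlapped with both fluids.

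The pathway genes that mark photoreceptors in the fly were present in all libraries. Of 12 photoreceptor markers listed, 5 could be paired with a gene model, namely norpA, inaD, TRP, ninaC and chaoptin, an adhesion protein of photoreceptor membranes, and the lowest count of any of them was 52. Their summed level was 309 to 355 CPM in mock, 456 to 479.7 after semen and 455 to 494 after seminal fluid in Experiment 1. In Experiment 2 it was 437 to 545 with Hayes saline, 585 to 616 after semen and 628 to 677 after seminal fluid. Without norpA the control and inseminated sums overlapped in Experiment 1, at 94.9 to 137 in mock and 121 to 159 in the others. They also overlapped in Experiment 2, at 172 to 246 with saline, 189 to 197 after semen and 223 to 276 after seminal fluid. Most of these sums came from inaD. Chaoptin did not overlap, with 1.87 to 3.36 CPM in mock against 6.37 to 10.2 CPM in inseminated libraries. With saline it was 1.61 to 1.94 CPM against 3.74 to 7.21 CPM. TRP and ninaC did not follow chaoptin. In Experiment 2 TRP was 10.6 to 15.6 CPM after semen, below the 17.8 to 18.5 CPM with saline. For ninaC these ranges were 12.9 to 16.2 and 17.3 to 20.9 CPM. After semen in Experiment 1 ninaC lay above mock, at 21.7 to 24.2 against 14.1 to 20.5 CPM. All other ranges of TRP, ninaC and inaD overlapped with their controls. The share of all genes without such overlap was not counted. The full sum, of which norpA was the largest part, did not overlap between control and inseminated libraries in either experiment, whereas Pkc did. The separation of the full sum therefore largely repeats the rise of norpA. The part of photoreceptor content in the norpA ratio was not tested. Library C of the seminal fluid group of Experiment 2, high in vitellogenin, held 32.2 CPM of TRP and 43.3 CPM of ninaC, the most of its group. The make-up of its pool was not tested. Of the fat body markers only vitellogenin was followed. Opsins and the markers of neurons, glia, glands, muscle and blood cells could not be paired with identifiers and were not analysed here.

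The genes whose levels varied most like Pkc over the 18 libraries were sought among 9691 genes, by Pearson correlation of log2 CPM centred within each experiment. The 5 highest were GB53646 (r = 0.87), GB54355 (0.82), GB48755 (0.80), GB51737 (0.78) and GB46720 (0.77), for which no name was found in the sources used. Over all genes the median r was 0.01, with quartiles at -0.20 and 0.23. For GB53646, GB48755 and GB51737 r was higher in Experiment 1 (0.94, 0.91 and 0.86) than in Experiment 2 (0.52, 0.40 and 0.38). It was closer in both for GB54355 (0.87 and 0.77) and GB46720 (0.78 and 0.76). Semen library A and seminal fluid libraries A and C of Experiment 1 were high for Pkc and for both of these genes. The first 2 of these libraries had the lowest TMM factors, 0.739 and 0.703, so the points share their scaling and r is a description only.

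None of these 5 genes was called for any insemination against controls, with log2 changes of 0.04 to 0.14 (adjusted p 0.461 to 0.872, edgeR). Among the pathway genes the highest r was 0.57, for GB51749, followed by 0.45 for Arp1, 0.38 for TRPgamma and 0.36 for PLC. For norpA r was 0.24, and 0.56 once groups were centred on their own means. The most abundant gene, GB49544, had an r of 0.11 with Pkc.

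**Figure D5:**
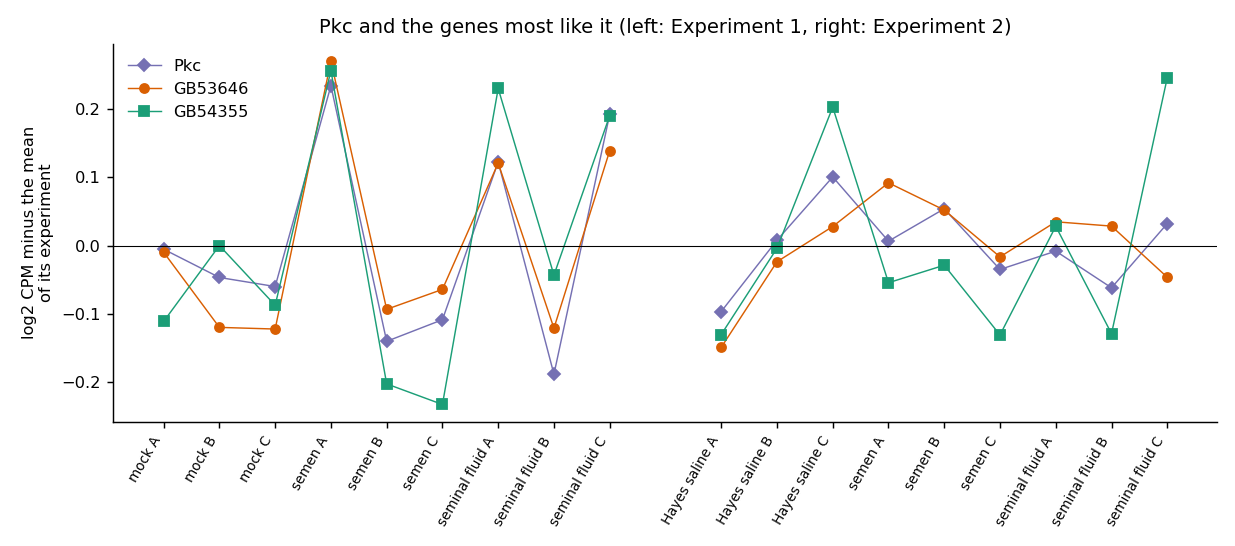
Log2 CPM of Pkc, GB53646 and GB54355 in each library, as the difference from the mean of its experiment. In Experiment 1 all 3 genes are high in semen A and seminal fluid A and C, and the range of Pkc is narrower in Experiment 2.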

How the data were processed

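The files deposited by the authors hold unnormalized counts of reads for each gene, made from 120 bp single-end reads (Trimmomatic, SortMeRNA, STAR 2.4.2a against assembly 4.5, HTSeq). The strand setting of the counting is not given in the sources used here. The 5 rows of unassigned reads were left out, and 68.8% to 72.1% of counts were assigned to genes.

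After TMM scaling, edgeR 4.0.16 (R 4.3.3) was fitted to the counts with group as the only term, over the 9 libraries of an experiment or, for contrasts across experiments, over all 18. Genes needed 10 counts in 3 libraries. Tests were two-sided, adjusted by Benjamini-Hochberg over all genes tested and called under 0.1, which is the 10% false discovery rate of the study. Log2 CPM used a prior count of 2. The tests were tested on simulated data.

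DESeq2 1.42.0, limma-voom (3.58.1), other normalizations, filters, library choices and leaving out each library were alternatives. Scaling by total count and removal of GB49544 were chosen after seeing the data. Besides Pkc, the named genes were called pathway genes, its pathway neighbours and the 5 genes most like it. The gene and the lists were chosen with earlier results of these data known. Of 22 pathway identifiers, 14 had a name, from the study's tables or RefSeq (Amel_HAv3.1). Nothing says whether pools came from separate insemination days, so p-values measure the spread between pools. No 2 libraries of a group were near-identical (lowest chi-square per gene 18.4).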

Additional observations from a re-analysis of the deposited data

How the results depend on the processing

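Pkc stayed on its side of the threshold in all 236 alternative fits and tests, with 0 calls among treatment comparisons and no lost call between experiments. Its changes of near 0 turned sign when single libraries were left out. The values then ranged from -0.0792 to 0.0901 for semen and 0.0202 to 0.196 for seminal fluid against mock insemination, from -0.0136 to 0.183 between both fluids in Experiment 1, from -0.0307 to 0.0589 and from -0.0711 to 0.0185 for semen and seminal fluid against Hayes saline, and from -0.0630 to -0.0165 between both fluids in Experiment 2. For the differences between experiments they ranged from -0.108 to 0.0891 (semen), -0.213 to -0.0312 (seminal fluid) and -0.196 to 0.00892 (between fluids), and for any insemination from -0.00328 to 0.0567. Other settings turned no sign of Pkc. The contrasts between experiments were smaller without TMM (-0.34 and -0.33) and ranged from -0.96 to -0.84 and from -0.90 to -0.81 with 1 library left out. In the combined contrast, changes of TRP (-0.153 to 0.0721), ninaC (-0.0128 to 0.258) and Camkii (-0.0749 to 0.200) also crossed 0 when single libraries were left out, as did the ratios to Pkc of ninaC (-0.0559 to 0.151) and Camkii (-0.0636 to 0.157).

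Counts of called genes depended on the tool and on single libraries. In the order of the 6 comparisons, edgeR called 15, 19, 0, 39, 51 and 1 genes and DESeq2 94, 281, 1, 330, 276 and 831. Limma-voom called 5, 17, 0, 41, 45 and 1, edgeR with only the 6 libraries compared 11, 4, 0, 42, 17 and 1201, and the fit of 18 libraries called 63, 619, 0, 45, 65 and 0. An adjusted p under 0.05 left 4, 13, 0, 23, 37 and 0 edgeR calls. For any insemination, edgeR called 313 genes, DESeq2 570 and edgeR without TMM 145. With 1 library left out, semen against mock gave 3 to 6 calls whichever library was dropped, and seminal fluid against mock 4 to 6 without a mock library and 9 without seminal fluid C. Dropping Hayes saline A, B or C left semen against saline with 97, 9 or 25 calls, and dropping semen A, B or C with 17, 71 or 14. For seminal fluid against saline the calls were 16 or 1074 when Hayes saline B or C was dropped, and 29, 25 or 95 when seminal fluid A, B or C was. Seminal fluid against semen in Experiment 2 gave 92 without semen B, its difference between experiments 1082 without semen A of Experiment 1, and any insemination 174 without Hayes saline B, 185 without mock C and 499 without Hayes saline C. The replicate letters did not pair the libraries, as libraries of the same letter deviated from their groups with correlations of -0.24 to 0.13 in Experiment 1 and -0.26 to 0.23 in Experiment 2. With a replicate block, Pkc gave 0.0265 for any insemination, and 8, 21, 0, 25, 41 and 4 genes were called, with norpA lost after seminal fluid in Experiment 1 (adjusted p = 0.130) and after both fluids in Experiment 2 (0.105 and 0.104) and Actin (a) after semen in Experiment 1 (0.141).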
